A study of Mus musculus with 5 samples.

Results

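The genes described here encode, in the nucleus, the subunits of the oxidative phosphorylation machinery of the mitochondrion. They were taken from a table of stem cells sorted from the hair follicles of mouse back skin, as all protein-coding features whose symbol begins with Ndufa, Ndufb, Ndufc, Ndufs, Ndufv, Sdh followed by a letter from a to d, Uqcr, Cox4i, Cox5, Cox6, Cox7, Cox8 or Atp5, with the Ndufaf assembly factors left out. This gave 86 of 30840 features, of which 17431 were protein-coding. The rule uses symbols and no expression value, although it was proposed with earlier results of these data known. Of the 86 features, 81 encode subunits of complexes I to V: 36 of complex I, 4 of complex II, 8 of complex III, 16 of complex IV and 17 of complex V. The prefix rule also took 4 complex II assembly factors (Sdhaf1 to Sdhaf4) and Atp5s, known as coupling factor B. Atp5o was listed for 2 features, so the 86 features carry 85 symbols.

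Polyadenylated RNA was sequenced from 2 Control and 3 PRC1 i2KO samples, numbered as in their titles (Control 2 and 3, PRC1 i2KO 1, 2 and 3). All mice of both groups were Ring1a-/- with Ring1bflox/flox, so the controls too lacked Ring1a, and all were treated on the skin with 1% RU-486 each day for 10 days from P50 (postnatal day 50). The PRC1 i2KO mice carried in addition K15-CrePR1, a form of Cre recombinase driven by the keratin 15 promoter and active in the presence of RU-486. The groups thus differ both by that transgene and by the loss of Ring1b it is meant to bring about. Cells that were EpCAM+, Sca1-, α6-integrin high and CD34+ were sorted at P70, and 50000 cells per sample were used. PRC1, a Polycomb complex, places ubiquitin on histone H2A through Ring1a or Ring1b.

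The libraries held between 11626006 counts (Control 3) and 43307694 counts (PRC1 i2KO 2). All 11 hair follicle stem cell markers examined (among them Cd34, Krt15, Lhx2 and Sox9) were detected, with summed levels of 12567 to 13237 CPM in the controls and 11682 to 14280 CPM in PRC1 i2KO, most of it from Krt5 and Krt15. None of them reached an adjusted p of 0.05 in the edgeR test described further on. At an unadjusted p under 0.05, however, 3 were lower (Cd34, Lhx2 and Lgr5), against 3.51% of all tested features. In the other direction, 1 was higher (Krt14), against 7.43%. Cd34, which was also used for the sort, was at 477 and 326 CPM in Control against 298, 292 and 164 CPM in PRC1 i2KO, a log2 fold change of -0.68 ± 0.27 (edgeR adjusted p = 0.422). Its part in the member values was not tested. CPM here are counts scaled to a common library size after TMM normalization. Rnf2, which encodes Ring1b, was at 27.7 and 37.5 CPM in Control against 39.9, 33.1 and 36.4 CPM in PRC1 i2KO, and its log2 fold change was 0.16 ± 0.25 (± is the SE throughout, edgeR adjusted p = 0.870). The values are per gene and the exons flanked by loxP are not given in the sources used here, so this level does not check the deletion, and the group names are those of the labels.

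In oxidative phosphorylation, complexes I and II pass electrons from NADH and succinate to ubiquinone, complex III passes them on to cytochrome c, and complex IV, cytochrome c oxidase, hands them to oxygen. Complexes I, III and IV pump protons across the inner mitochondrial membrane, and complex V, the ATP synthase, uses the return of these protons to make ATP. Most subunits come from nuclear genes, and a small set, which includes the central membrane subunits of complexes I, III, IV and V, comes from the mitochondrial genome. Hair follicle stem cells are known for a glycolytic metabolism. NRF1, GABP (an ETS factor), YY1 and estrogen-related receptors are the transcription factors classically linked to nuclear genes of this pathway.

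Promoter sequences in the RefSeq table of build GRCm38.p6, each running from 250 bases before to 50 bases after the gene's start, were matched by symbol for 70 of the 85 symbols. Searched on both strands, the NRF1 motif GCGCNTGCG occurred in 25 of 70 member promoters (35.7%), against 13.4% of 11663 promoters of tested protein-coding genes of the same length. With 1 more C at its 3′ end it occurred in 19 (27.1%), against 10.1%, and both forms are given because the choice between them was made after their values were seen. The ETS motif CCGGAAG occurred in 19 (27.1%), against 17.6%. The YY1 motif AAGATGGCG was found in 7 (10.0%), against 3.10%, and the estrogen-related receptor (ERR) motif CAAGGTCA in 4 (5.71%), against 1.29%. A promoter can hold more than 1 of these motifs, and a match describes letters only. The windows below show the motif in capitals with its flanks, in the direction of transcription and upstream of the start. They were chosen to show each motif in a member described further on, and Sdhd and Sdha show the NRF1 motif in the complex II subunits with the highest and the lowest log2 fold change.
Sdhd, NRF1, chr9:50603894-50603952, minus strand: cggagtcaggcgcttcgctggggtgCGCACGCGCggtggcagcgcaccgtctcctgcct
Sdha, NRF1, chr13:74350261-74350319, minus strand: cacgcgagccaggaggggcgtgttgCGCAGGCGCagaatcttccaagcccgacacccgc
Atp5c1, NRF1, chr2:10080433-10080473, minus strand: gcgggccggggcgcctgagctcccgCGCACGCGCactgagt
Atp5g3, ERR, chr2:73911346-73911403, minus strand: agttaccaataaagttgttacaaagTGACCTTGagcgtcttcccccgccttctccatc
Atp5e, ETS, chr2:174464172-174464228, minus strand: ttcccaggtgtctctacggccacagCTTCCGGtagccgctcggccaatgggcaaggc
Atp5j, YY1, chr16:84835031-84835089, minus strand: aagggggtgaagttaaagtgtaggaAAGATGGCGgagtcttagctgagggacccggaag

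Taken gene by gene, no member passed the test between the groups, while most lay higher in PRC1 i2KO. The test was edgeR's quasi-likelihood test on all 22181 features that passed its filter on low counts, p-values adjusted by Benjamini-Hochberg, and a threshold of 0.05. Of the 84 members that passed the filter, 0 were higher and 0 were lower at that threshold, against 0.126% of all tested features called higher and 0% called lower. The smallest adjusted p among the members was 0.146. At an unadjusted p under 0.05 there were 37 members higher and 0 lower, against 7.43% and 3.51% of all tested features. DESeq2, run as an alternative, called 12 members higher and 0 lower, against 3.43% higher and 0.75% lower among all features it tested, limma-voom called 0 (0.018% of all tested features higher, 0% lower), and limma on log2(TPM + 1) called 0 (0.00902% higher, 0.00451% lower). The 2 members left out by the filter were Cox7b2 and the second Atp5o feature.

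The log2 fold change was above 0 in 77 of the 84 tested members, against 50.4% of all tested features. It reached 0.5 in 50 members, against 23.9%, and 1 in 13 members, against 12.0%. The median over the members was 0.61, beside 0.01 over all tested features and 0.11 over the tested protein-coding genes. The quartiles of the members were 0.29 and 0.86, and the median standard error of a member was 0.30. In 47 members every PRC1 i2KO library lay above both controls in CPM, against 14.6% of all tested features, and in 2 (Ndufab1 and Sdhaf4) every PRC1 i2KO library lay below, against 15.3%. The 7 members with a negative log2 fold change were Ndufab1, Ndufb2, Sdha, Cox7a1, Sdhaf1, Sdhaf4 and Atp5s.

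The 3 PRC1 i2KO libraries were not alike. Shifts from the control mean on the log2(CPM + 0.5) scale had medians over the members of 0.82 in PRC1 i2KO 1, 0.52 in PRC1 i2KO 2 and 0.49 in PRC1 i2KO 3, beside -0.10 and 0.10 in Control 2 and 3. The median shift over all tested features was between -0.05 and 0.00 in each library. PRC1 i2KO 1 was the highest PRC1 i2KO library for 54 of the 84 members, PRC1 i2KO 2 for 18 and PRC1 i2KO 3 for 12. Without PRC1 i2KO 1, the median log2 fold change of the members was 0.46, and 48 members had both other PRC1 i2KO libraries above both controls, against 20.4% of all tested features. Leaving out Control 3, the shallowest library, raised that count to 67, against 25.7%.

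**Figure D1:**
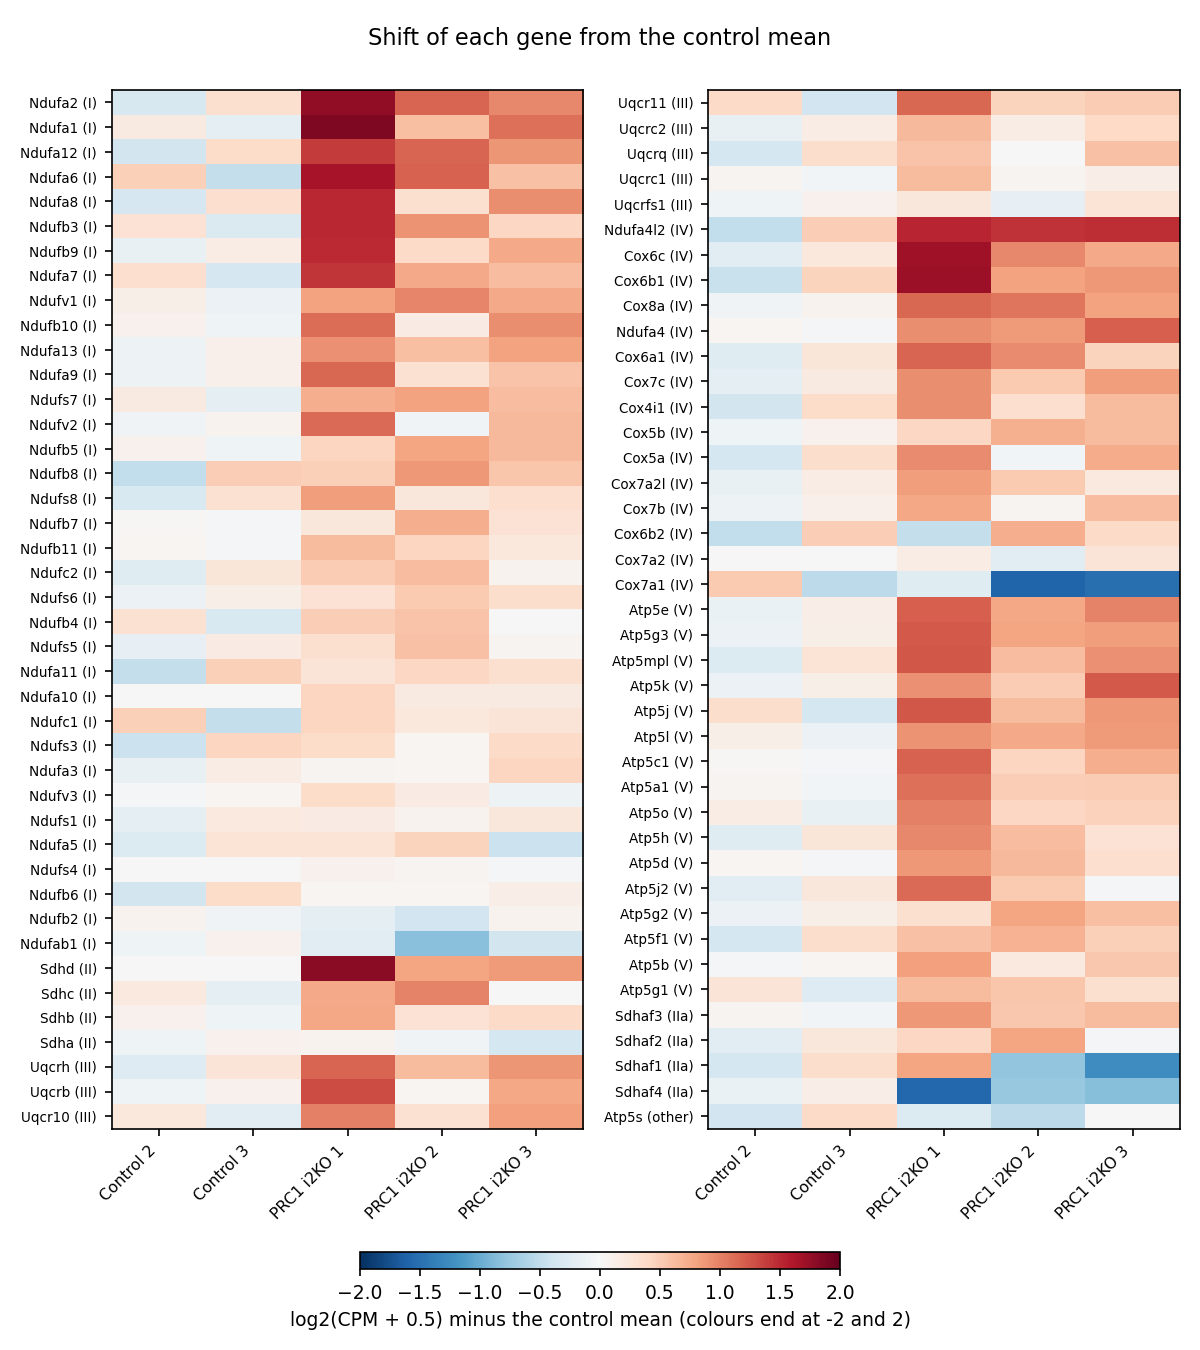
Shift of each tested member but 1 (rows, complex in brackets, IIa for complex II assembly factors) from the control mean in each library (columns), as log2(CPM + 0.5), in red where higher and blue where lower. PRC1 i2KO 1 carries the deepest red, with a median shift of 0.82, and the blue rows of PRC1 i2KO include Ndufab1, Cox7a1 and Sdhaf4.

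**Figure D2:**
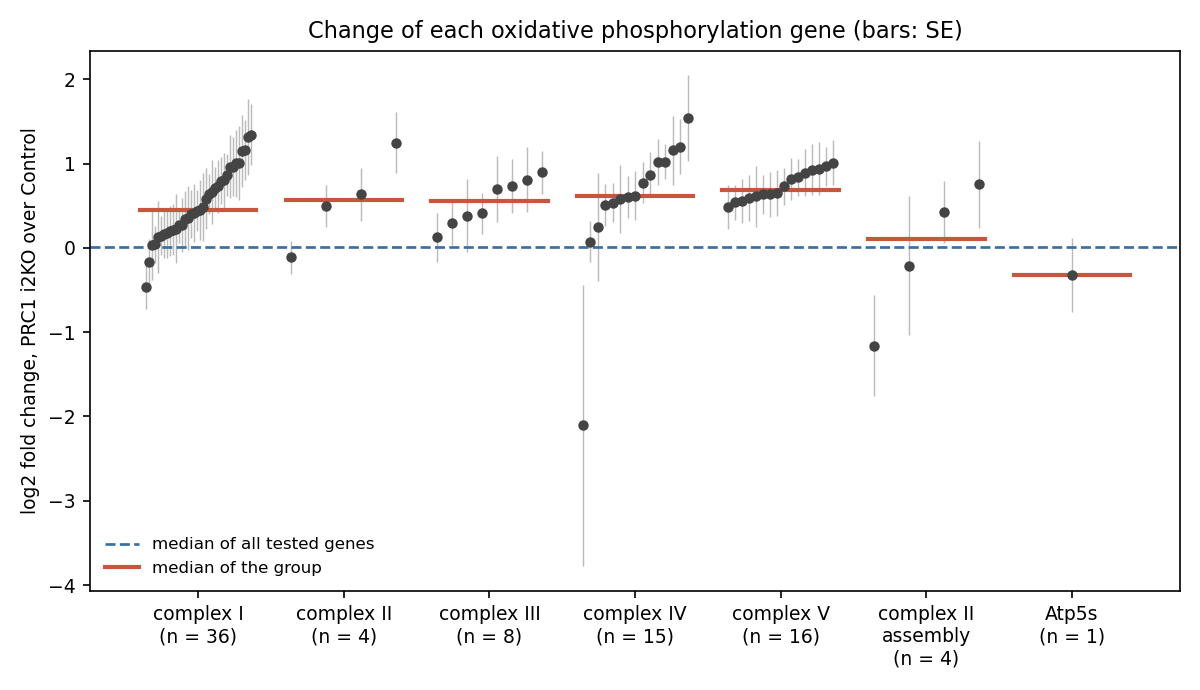
Log2 fold change of each tested member (points) with its standard error (bars), ordered within each complex, with the median of the group in red and that of all tested genes as a dashed line. Complex V is the narrowest of the 5 complexes, with all 16 points between 0.49 and 1.01, while complexes I, II and IV each have points on both sides of 0.

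Complex V, the ATP synthase, had the highest median of the 5 complexes, 0.69, and all 16 tested members lay above 0, between 0.49 and 1.01. In 15 of them every PRC1 i2KO library lay above both controls, against 14.6% of all tested features. At an unadjusted p under 0.05, 12 were higher, against 7.43%. The F1 head, which holds the catalytic sites, is made of the α (Atp5a1), β (Atp5b), γ (Atp5c1), δ (Atp5d) and ε (Atp5e) subunits. Its 5 genes had a median of 0.73, and in each of them all PRC1 i2KO libraries lay above both controls. Atp5b (ENSMUSG00000025393.12), the catalytic β subunit, had the highest level per length of all members, with a mean of 658 TPM over the 5 libraries. It was at 266 and 283 CPM in Control against 487, 313 and 397 CPM in PRC1 i2KO, a log2 fold change of 0.54 ± 0.21 (edgeR adjusted p = 0.382). The groups do not overlap, and the spread among PRC1 i2KO libraries is wider than the gap between the groups.

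Atp5a1, the α subunit, was at 272 and 250 CPM in Control against 561, 367 and 370 CPM in PRC1 i2KO, a log2 fold change of 0.73 ± 0.22 (edgeR adjusted p = 0.270). Atp5c1, the γ subunit that turns inside the head, was at 72.3 and 69.97 CPM against 162, 96.0 and 118 CPM, a log2 fold change of 0.82 ± 0.25 (adjusted p = 0.270). In both genes PRC1 i2KO 1 was the highest library by a wide margin and the controls were close together. Atp5e, the small ε subunit whose promoter window is printed above, was at 16.4 and 19.7 CPM against 41.8, 31.0 and 36.2 CPM, with the largest log2 fold change of the complex, 1.01 ± 0.27 (adjusted p = 0.221).

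The membrane ring that carries protons through complex V is built of subunit c, which 3 genes encode as the same mature protein. Atp5g3 was at 39.8 and 46.6 CPM in Control against 101, 74.4 and 77.2 CPM in PRC1 i2KO, a log2 fold change of 0.97 ± 0.23 (adjusted p = 0.179, the second smallest of the members). Atp5g2 was at 18.5 and 22.1 CPM against 25.3, 35.4 and 30.9 CPM, with a log2 fold change of 0.59 ± 0.27 (adjusted p = 0.482). Atp5g1 was at 34.1 and 23.6 CPM against 44.4, 42.0 and 35.5 CPM, and its 0.49 ± 0.26 was the smallest value of the complex (adjusted p = 0.553). All PRC1 i2KO libraries were above both controls for each of the 3 genes, and differences between the 3 fold changes were not tested. Per length, Atp5g3 had the highest level of the 3 genes in every library, from 75.2 to 133 TPM, beside 25.4 to 57.7 TPM for Atp5g1 and 32.9 to 60.4 TPM for Atp5g2.

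Atp5l, subunit g of the membrane part, was at 34.1 and 28.9 CPM against 58.8, 53.2 and 57.4 CPM, a log2 fold change of 0.84 ± 0.22 (adjusted p = 0.215). Its PRC1 i2KO libraries agreed more closely than those of Atp5b or Atp5c1. The 8 complex V members not named by the rule for named genes, Atp5j among them, had log2 fold changes between 0.56 and 0.94 and adjusted p between 0.290 and 0.598. The second Atp5o feature (ENSMUSG00000116933.1) had 2, 0, 1, 0 and 0 counts in Control 2 and 3 and PRC1 i2KO 1, 2 and 3, and its reads could have been split with the first.

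Complex IV had a median log2 fold change of 0.62 over its 15 tested members, of which 14 were above 0. At an unadjusted p under 0.05, 9 were higher, against 7.43% of all tested features. In 9 every PRC1 i2KO library lay above both controls, against 14.6%. Cox8a (ENSMUSG00000035885.4), the ubiquitous form of subunit 8, had the smallest p of all members. It was at 43.5 and 48.0 CPM in Control against 102, 96.4 and 80.0 CPM in PRC1 i2KO, a log2 fold change of 1.02 ± 0.21 (edgeR adjusted p = 0.146). Every PRC1 i2KO library exceeded the higher control by a wider margin than separated the controls. Cox8a was also the member of complex IV with the highest level per length, a mean of 174 TPM. Cox6c, a small structural subunit, was at 24.4 and 32.5 CPM against 92.7, 55.5 and 47.8 CPM, a log2 fold change of 1.20 ± 0.33 (adjusted p = 0.231).

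Among the conserved structural subunits of complex IV, Cox4i1 was at 32.3 and 54.2 CPM in Control against 80.5, 53.2 and 65.2 CPM in PRC1 i2KO, a log2 fold change of 0.62 ± 0.29 (adjusted p = 0.482). PRC1 i2KO 2 lay just under Control 3 for this gene, so the groups overlap. Cox5a, which binds the matrix side of the complex, was at 10.3 and 17.1 CPM against 25.9, 12.8 and 22.7 CPM, with 0.58 ± 0.40 (adjusted p = 0.657), and overlaps in the same library. Cox5b, a zinc-binding subunit, was at 20.1 and 22.7 CPM against 28.7, 35.4 and 33.2 CPM, with 0.60 ± 0.25 (adjusted p = 0.438) and no overlap. Cox7c, the single complex IV member outside the rule for named genes, was at 0.77 on the log2 scale (adjusted p = 0.287).

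Several complex IV subunits exist as paralogs, 1 widely expressed and 1 restricted in tissue or condition, and both kinds were compared per length. The ubiquitous Cox6b1, which faces the intermembrane space, was at 32.8 and 68.5 TPM in the controls and at 88.9, 62.2 and 53.9 TPM in PRC1 i2KO, while the testis form Cox6b2 was at 11.9 and 14.3 TPM against 6.41, 19.8 and 13.3 TPM. Their log2 fold changes on counts were 1.16 ± 0.41 (adjusted p = 0.351) and 0.25 ± 0.64 (adjusted p = 0.933). For Cox6b2 the PRC1 i2KO libraries lie on both sides of the controls. On TPM the groups also overlap for Cox6b1, although on CPM (9.26 and 17.8 against 43.1, 22.8 and 23.8) they do not.

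Cox7a2, the widely expressed form of subunit 7a, was at 34.9 and 35.4 CPM in Control against 39.2, 29.9 and 41.9 CPM in PRC1 i2KO, a log2 fold change of 0.07 ± 0.25 (adjusted p = 0.951). It was the member of complex IV with the log2 fold change closest to 0. Cox7a2l, a relative that links complexes III and IV in supercomplexes, was at 85.6 and 106 CPM against 171, 137 and 109 CPM, with 0.53 ± 0.23 (adjusted p = 0.449), and PRC1 i2KO 3 lay only just above Control 3. Cox7a1, the heart and muscle form, was at 1.66 and 0.555 CPM in Control against 0.779, 0 and 0.0316 CPM in PRC1 i2KO. Its log2 fold change of -2.11 ± 1.67 (adjusted p = 0.711) was the lowest of all members and rests on a single count in PRC1 i2KO 3 and none in PRC1 i2KO 2, where 0 counts allow a level of up to 3 counts, or 0.0677 CPM. In Control, 82 counts were in Control 2 and 7 in Control 3, and leaving out each library in turn gave -6.00 (without PRC1 i2KO 1) to -1.06 (without Control 2). The limit covers counting error only.

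Cox7b, a ubiquitous small subunit, was at 63.0 and 73.2 CPM in Control against 117, 70.3 and 104 CPM in PRC1 i2KO, with 0.51 ± 0.25 (adjusted p = 0.503). Its paralog Cox7b2 did not pass the filter, with no more than 3 counts in any library. Cox6a1, the form of subunit 6a found outside muscle, was at 42.5 and 59.9 CPM against 114, 98.1 and 68.5 CPM, with 0.87 ± 0.27 (adjusted p = 0.287) and no overlap. Cox4i2, Cox6a2, Cox8b and Cox8c had no feature among the members and are not analysed here.

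Ndufa4 carries a complex I name but is a subunit of complex IV, and Ndufa4l2 is its paralog, known as a target of hypoxia-inducible factor. Ndufa4 was at 14.5 and 13.6 CPM in Control against 27.0, 25.7 and 32.5 CPM in PRC1 i2KO, a log2 fold change of 1.02 ± 0.28 (edgeR adjusted p = 0.234). Ndufa4l2 was at 2.25 and 4.92 CPM against 10.6, 10.0 and 10.2 CPM, the highest log2 fold change of all members, 1.54 ± 0.51 (adjusted p = 0.314). Its 3 PRC1 i2KO libraries were nearly equal, while the controls differed from each other. Per length, Ndufa4 stood at 35.9 to 82.3 TPM and Ndufa4l2 at 3.55 to 12.5 TPM, so that in every library the widely expressed gene was the more abundant.

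**Figure D3:**
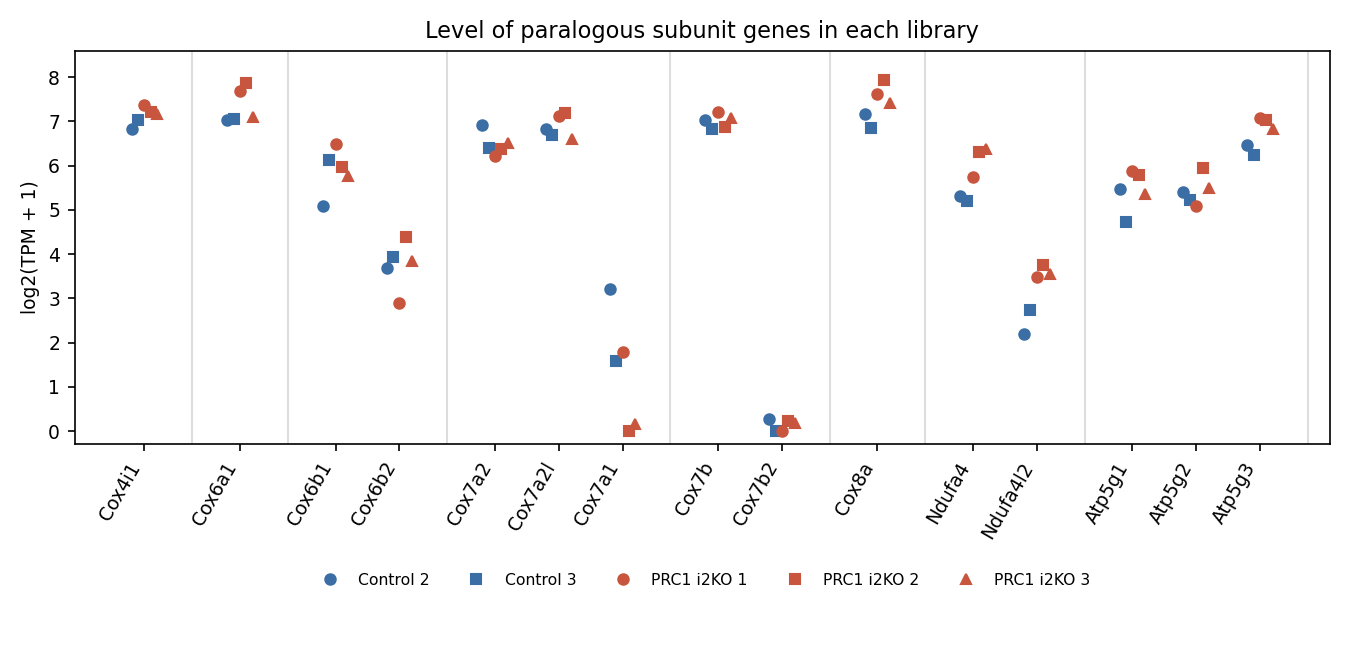
Level per length, as log2(TPM + 1), of complex IV and subunit c paralogs in each library, with controls in blue and PRC1 i2KO in red. The tissue-restricted forms Cox6b2, Cox7a1, Cox7b2 and Ndufa4l2 stand below their widely expressed relatives in all 5 libraries, and Atp5g3 stands above Atp5g1 and Atp5g2.

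Complex III had 8 of 8 tested members above 0, with a median log2 fold change of 0.55. In 3 of them every PRC1 i2KO library lay above both controls, against 14.6% of all tested features. At an unadjusted p under 0.05, 1 was higher, against 7.43%. That gene was Uqcrh, the hinge protein that holds cytochrome c1, and it was also the complex III gene with the highest level per length, a mean of 183 TPM. It was at 38.6 and 55.7 CPM in Control against 105, 72.2 and 85.8 CPM in PRC1 i2KO, a log2 fold change of 0.90 ± 0.25 (edgeR adjusted p = 0.241). The core and redox subunits lay closer to 0. Uqcrc1 was at 37.5 and 34.4 CPM against 55.8, 37.3 and 39.4 CPM, with 0.29 ± 0.26 (adjusted p = 0.742), and Uqcrc2 was at 36.4 and 44.6 CPM against 63.5, 44.6 and 53.2 CPM, with 0.41 ± 0.24 (adjusted p = 0.595). Uqcrfs1, the Rieske iron-sulfur protein, was at 17.3 and 19.6 CPM against 21.6, 16.4 and 22.4 CPM, the smallest value of the complex at 0.13 ± 0.29 (adjusted p = 0.924). In these 3 genes PRC1 i2KO 1 and 3 stood above both controls and PRC1 i2KO 2 did not. The other 4 members lay between 0.38 and 0.81.

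Complex II, succinate dehydrogenase, has 4 subunits, and their log2 fold changes ran from -0.11 to 1.25 with a median of 0.57. Sdha, the flavoprotein that oxidises succinate, was the most abundant per length, a mean of 46.5 TPM. It was at 102 and 114 CPM in Control against 113, 103 and 84.5 CPM in PRC1 i2KO, a log2 fold change of -0.11 ± 0.20 (edgeR adjusted p = 0.894). Sdhd, which anchors the complex in the membrane, was at 16.9 and 17.1 CPM against 60.5, 29.6 and 31.0 CPM, with 1.25 ± 0.36 (adjusted p = 0.251). The promoter windows of both carry the NRF1 motif, Sdha at 3 positions of its promoter. All PRC1 i2KO libraries were above both controls for Sdhd, and for Sdha they lay on both sides of them.

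Sdhb, the iron-sulfur subunit, was at 31.6 and 27.9 CPM in Control against 50.9, 36.5 and 38.7 CPM in PRC1 i2KO, with 0.50 ± 0.25 (adjusted p = 0.525). Sdhc, the other membrane anchor, was at 46.8 and 35.2 CPM against 69.4, 81.7 and 40.5 CPM, with 0.64 ± 0.31 (adjusted p = 0.512), and PRC1 i2KO 3 lay between the controls. The 4 assembly factors of complex II had log2 fold changes between -1.16 and 0.75 with a median of 0.11. Sdhaf4, which helps Sdha join Sdhb and is named here after its values were seen, was at 4.81 and 5.95 CPM in Control against 1.47, 2.98 and 2.75 CPM in PRC1 i2KO, with -1.16 ± 0.60 (adjusted p = 0.539). Atp5s was at -0.32 on the log2 scale (adjusted p = 0.851).

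Complex I was the largest group, with a median log2 fold change of 0.45 and 34 of 36 members above 0. In 17 members every PRC1 i2KO library lay above both controls, against 14.6% of all tested features. At an unadjusted p under 0.05, 14 were higher, against 7.43%. The 7 core subunits of complex I, which hold the flavin and the iron-sulfur clusters, had a median of 0.48, and its 29 accessory subunits a median of 0.44. Ndufv1, the flavin-bearing subunit that takes up NADH, was at 21.3 and 18.2 CPM in Control against 34.9, 39.3 and 33.8 CPM in PRC1 i2KO, a log2 fold change of 0.86 ± 0.25 (edgeR adjusted p = 0.253). Ndufv2, its partner, was at 15.1 and 16.6 CPM against 35.4, 15.1 and 25.1 CPM, with 0.67 ± 0.38 (adjusted p = 0.578). The libraries of Ndufv1 do not overlap between the groups, whereas for Ndufv2 PRC1 i2KO 2 was as low as Control 2.

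Other core subunits line up along the path of electrons to ubiquinone. Ndufs1 was at 34.3 and 45.2 CPM in Control against 44.2, 41.2 and 46.1 CPM in PRC1 i2KO, with 0.14 ± 0.23 (adjusted p = 0.879). The groups overlap for this gene, with only PRC1 i2KO 3 above Control 3. Ndufs3, which had the highest level per length of complex I (a mean of 86.3 TPM), was at 21.9 and 40.1 CPM against 38.4, 30.7 and 38.7 CPM, with 0.22 ± 0.31 (adjusted p = 0.856). Ndufs7, which carries the last iron-sulfur cluster before ubiquinone, was at 26.7 and 20.8 CPM against 39.2, 41.5 and 36.5 CPM, with 0.71 ± 0.25 (adjusted p = 0.340). Ndufs7 and Ndufv1 were the core genes without overlap, while Ndufs8, another cluster-bearing subunit, was at 7.21 and 11.2 CPM against 16.5, 10.6 and 11.4 CPM, with 0.48 ± 0.41 (adjusted p = 0.729).

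Among the accessory subunits of complex I the extremes were Ndufa2 and Ndufab1. Ndufa2 was at 10.4 and 16.6 CPM in Control against 46.0, 30.2 and 26.0 CPM in PRC1 i2KO, a log2 fold change of 1.34 ± 0.36 (edgeR adjusted p = 0.223). Ndufab1 was at 35.7 and 40.5 CPM against 32.8, 21.0 and 29.3 CPM, with -0.46 ± 0.27 (adjusted p = 0.591). Ndufab1 is the mitochondrial acyl carrier protein, which also serves mitochondrial fatty acid synthesis and the making of iron-sulfur clusters, and it was the single subunit for which all PRC1 i2KO libraries lay below both controls. A listed pseudogene copy of it held 1.28% as many counts as the gene itself. The 27 complex I members not named by the rule lay between -0.16 and 1.32. In 14 of them every PRC1 i2KO library lay above both controls, against 14.6% of all tested features.

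Summed over all members, the nuclear genes stood higher in every PRC1 i2KO library. The members together summed to 2498 and 2735 CPM in the controls and to 4716, 3544 and 3643 CPM in PRC1 i2KO, so that the group means stood in a ratio of 1.52. CPM after TMM scaling are not shares of a library, and for the sum of all tested features the same ratio was 1.20. As a share of all counts, the members held 0.287% and 0.297% in the controls and 0.404%, 0.363% and 0.332% in PRC1 i2KO. Complex V summed to 1000 and 1009 CPM against 1988, 1396 and 1496 CPM, complex IV to 417 and 530 CPM against 919, 703 and 705 CPM, and complex III to 184 and 204 CPM against 356, 230 and 285 CPM. These sums are largest in PRC1 i2KO 1 and do not overlap between the groups. Complex I summed to 671 and 756 CPM against 1120, 925 and 932 CPM. Complex II, with 198 and 195 CPM against 294, 251 and 195 CPM, was the exception, since PRC1 i2KO 3 was at the control level. In bulk samples, a different share of cells of a type and a different amount of RNA per cell cannot be told apart.

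The 13 mitochondrially encoded subunits, which complete complexes I, III, IV and V, lay higher as well. They summed to 39578 and 44855 CPM in the controls and to 72304, 49940 and 70503 CPM in PRC1 i2KO. The ratio of the group means was again 1.52, beside 1.20 for the sum of all tested features. As a share of all counts, the 13 subunits held 4.54% and 4.86% in the controls and 6.20%, 5.11% and 6.43% in PRC1 i2KO. Their median log2 fold change was 0.71, and 0 of 13 passed the threshold. At an unadjusted p under 0.05, 12 were higher, against 7.43% of all tested features. In 12 every PRC1 i2KO library lay above both controls, against 14.6%. The smallest adjusted p was that of mt-Atp6, 0.165. The libraries stood in the same order by both sums of CPM, with other gaps. PRC1 i2KO 3 was close to PRC1 i2KO 1 for mitochondrial transcripts and close to PRC1 i2KO 2 for nuclear ones. For each count of a nuclear member there were 15.8 and 16.4 counts of mitochondrially encoded subunits in the controls and 15.3, 14.1 and 19.4 in PRC1 i2KO, so the ratio overlaps between the groups. Since mitochondrial features of all kinds took 21.2% and 27.4% of counts in the controls and 35.9%, 26.6% and 38.4% in PRC1 i2KO, the nuclear members were also set against the remaining counts. There they held 0.364% and 0.409% in the controls and 0.631%, 0.494% and 0.539% in PRC1 i2KO, without overlap.

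**Figure D4:**
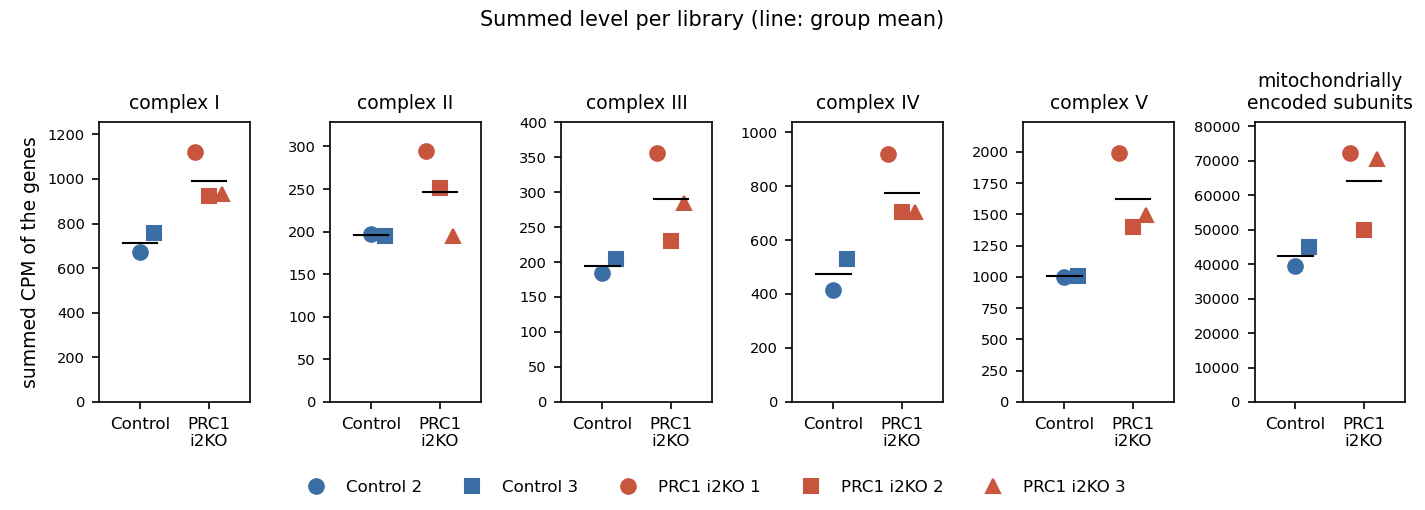
Summed CPM of the genes of each complex and of the mitochondrially encoded subunits in each library (points, line at the group mean; each panel has its own axis from 0). The groups do not overlap for complexes I, III, IV and V and for the mitochondrially encoded subunits, and for complex II PRC1 i2KO 3, at 195 CPM, lies at the level of the controls.

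On the deposited TPM values, which divide by transcript length and fix the sum of each library, the ratio of summed levels was smaller. The members summed to 5071 and 4230 TPM in the controls and to 6238, 5972 and 5407 TPM in PRC1 i2KO, a ratio of 1.26. For the sum of all tested features the ratio was smaller too, at 1.00 on TPM beside 1.20 on CPM. The median difference on the log2(TPM + 1) scale was 0.25 over the members and -0.19 over all tested features, and 59 of 84 members were above 0. In 24 members every PRC1 i2KO library lay above both controls in TPM, against 7.01% of all tested features, and in 6 members (Ndufab1, Ndufs1, Ndufs3, Sdha, Sdhaf4 and Atp5s) every one lay below, against 23.0%. Beside the 59 members above 0 on the log2(TPM + 1) scale, 25 were below 0. Among these were Sdha at -0.59 and several members that were above 0 on counts. Of the latter, those described above are Ndufs1, Ndufs3, Uqcrc1, Uqcrc2, Uqcrfs1, Cox6b2 and Cox7a2. Complex V kept all 16 tested members above 0 in TPM, with a median of 0.43. Complex I summed to 1517 and 1274 TPM in the controls against 1569, 1691 and 1406 TPM in PRC1 i2KO. Its groups thus overlap on TPM, although they do not on CPM. The TPM sums of complexes III, IV and V did not overlap between the groups.

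Members are short genes, with a median transcript length of 693.5 bases against 2262 bases over all tested protein-coding genes with a length. Across genes, length and log2 fold change had a Spearman correlation of -0.139 over 14997 genes and of -0.242 over the 84 members, where all genes share the same 5 libraries. Up to 750 bases, the 48 members had a median of 0.64 and the 1230 other protein-coding genes a median of 0.23. From 750 to 1000 bases the medians were 0.64 (15 members) and 0.25, from 1000 to 1500 bases 0.51 (13 members) and 0.25, and from 1500 to 3000 bases 0.43 (7 members) and 0.10. In each of these 4 classes the median of the members was above that of other genes of like length, and among the other genes the shorter classes lay higher than the longest. The part that length plays in the size of the difference was not tested beyond this.

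**Figure D5:**
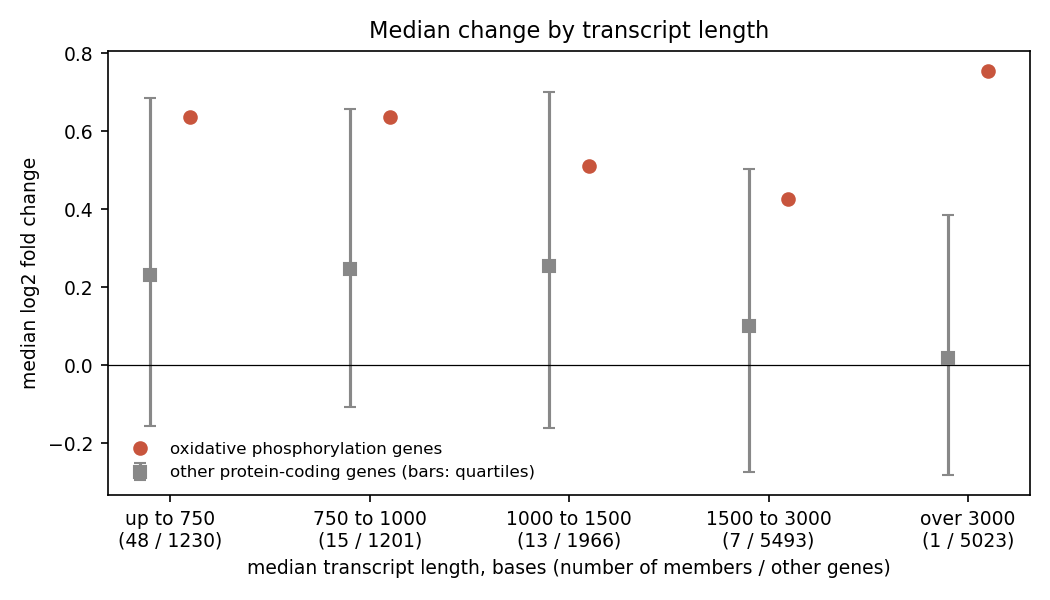
Median log2 fold change of the members (red) and of other protein-coding genes (grey, bars from the lower to the upper quartile) by median transcript length in bases. The red points of the first 4 classes lie between 0.43 and 0.64, inside the quartile bars and above the grey medians, and the last class holds 1 member.

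Members with and without each promoter motif were set side by side, without a test. The median log2 fold change was 0.70 with the NRF1 motif and 0.52 without it (0.63 and 0.58 with 1 more C), 0.75 and 0.56 for the ETS motif, 0.61 and 0.59 for YY1, and 0.90 (4 members) and 0.58 for ERR. The genes of the factors themselves were close to 0 or poorly measured. The log2 fold change of Nrf1 was -0.13 ± 0.29 (edgeR adjusted p = 0.921), Gabpa 0.02 ± 0.18 (adjusted p = 0.987), Yy1 0.00 ± 0.20 (adjusted p = 0.999) and Ppargc1a, the coactivator PGC-1α, 0.11 ± 0.35 (adjusted p = 0.948). Esrra was at 1.42 and 3.97 CPM in Control against 5.64, 7.17 and 2.34 CPM in PRC1 i2KO, with 0.93 ± 0.74 (adjusted p = 0.711), and Tfam, which packages mitochondrial DNA, had 0.67 ± 0.34 (adjusted p = 0.531). Over the 20 tested regulators and mitochondrial DNA maintenance genes the median was 0.11, 0 passed the threshold, and 2 were higher and 0 lower at an unadjusted p under 0.05, beside 7.43% and 3.51% of all tested features.

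Other genes of mitochondrial and energy metabolism showed smaller medians than the subunits, with 0 genes past the threshold in either direction in any list. The 46 assembly factors, a list that includes the 4 Sdhaf genes, had a median of 0.42 on the log2 scale, with 3 higher and 2 lower at an unadjusted p under 0.05, shares near the 7.43% and 3.51% of all tested features. The 78 mitochondrial ribosomal protein genes had a median of 0.34 (9 higher, 1 lower), the 16 citric acid cycle genes 0.32 (3 higher, 0 lower) and the 26 import and cristae genes 0.20 (5 higher, 0 lower). Cyc1, the nuclear cytochrome c1 of complex III whose symbol lies outside the rule, had 0.16 ± 0.24 (adjusted p = 0.867), and cytochrome c itself, Cycs, 0.49 ± 0.32 (adjusted p = 0.634). Differences between these medians were not tested.

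The 16 tested glycolysis genes had a median of 0.54, above the 0.45 of complex I and close to the 0.55 of complex III. Of these, 6 were higher and 0 lower at an unadjusted p under 0.05, beside 7.43% and 3.51% of all tested features. Eno1, enolase, was at 42.6 and 49.7 CPM in Control against 108, 79.0 and 82.8 CPM in PRC1 i2KO, with 0.96 ± 0.22 (adjusted p = 0.179). The 7 tested carriers and uncoupling proteins had a median of 0.45 (3 higher, 0 lower), level with complex I. Ucp2, an inner membrane carrier named for its likeness to the uncoupling protein of brown fat, was at 38.5 and 47.7 CPM against 251, 105 and 184 CPM, a log2 fold change of 2.06 ± 0.35 (edgeR adjusted p = 0.0867). Its log2 fold change was above that of every member, and PRC1 i2KO 2 was the lowest of the 3 PRC1 i2KO libraries. Slc25a5, the ADP/ATP carrier that exports the product of complex V, was at 50.4 and 66.4 CPM against 119, 92.8 and 92.8 CPM, with 0.80 ± 0.22 (adjusted p = 0.240). Eno1, Ucp2 and Slc25a5 were named after their values were seen.

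Mitosis genes and markers of other cell types also varied. Over the 23 mitosis genes the median of the log2 fold change was 2.88, with 0 past the threshold. At an unadjusted p under 0.05, 15 were higher, against 7.43% of all tested features. The mitosis genes summed to 64.0 and 115 CPM in the controls and to 486, 119 and 1051 CPM in PRC1 i2KO. PRC1 i2KO 3 was the highest library for mitosis genes, and PRC1 i2KO 2 was close to Control 3. The 7 markers of differentiating epidermis summed to 816 and 784 CPM against 771, 2551 and 1344 CPM, and Ly6a, which encodes Sca1, was at 1.62 and 0.793 CPM against 3.12, 4.78 and 4.93 CPM. Fibroblast markers (6 of 8 in the table, 2 under 1 CPM in every library) summed to 23.7 and 21.1 CPM against 57.1, 65.9 and 48.0 CPM. Most of the difference lay in Pdgfra (3.37 and 2.22 CPM against 32.5, 25.4 and 16.0 CPM) and Col1a1 (3.41 and 2.94 CPM against 11.2, 19.7 and 7.88 CPM). Col1a2 was at 16.8 and 15.7 CPM against 13.3, 20.3 and 20.8 CPM. The highest value among Col3a1, Dcn and Lum was 3.13 CPM (Dcn in PRC1 i2KO 3). The part of mitosis genes and of these cell types in the member values was not tested.

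Markers of muscle and of fat, tissues that lie under the skin, were low. Of 12 skeletal muscle markers 8 were in the table and 4 of these stayed under 1 CPM in every library, with sums of 3.94 and 4.21 CPM in the controls and of 3.25, 3.13 and 4.97 CPM in PRC1 i2KO, and Acta1 was at 0 in all 5 libraries. Adipocyte markers (5 of 8 in the table, 3 under 1 CPM in every library) summed to 2.74 and 1.27 CPM against 1.01, 0.767 and 1.11 CPM. Melanocyte markers (5 of 6 in the table) summed to 205 and 160 CPM against 106, 127 and 82.5 CPM, nearly all of it from Mitf (196 and 153 CPM against 102, 123 and 75.9 CPM), and Dct, Pmel, Tyr and Tyrp1 were each under 5 CPM in every library. Immune markers (7 of 8) summed to 7.65 and 10.3 CPM against 13.6, 11.5 and 19.0 CPM, and endothelial and mural markers (5 of 6) to 19.0 and 13.0 CPM against 15.1, 21.0 and 22.8 CPM.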

How the data were processed

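Polyadenylated RNA of 5 samples was analysed from 1 deposited table that gives, for each feature and sample, an expected count and a TPM value. Of the authors' expected counts 51.7% were not whole within 0.001, and all were rounded before testing. The TPM values were deposited already scaled by transcript length. Build mm39, RSEM 1.3.3, STAR 2.7.9a and DESeq2 1.38.2 appear in the submitters' processing notes, with no roles. The sources used here do not say whether counting used strand. In GENCODE M21, 13 members have a same-strand gene overlapping them and 28 only an opposite-strand one, and 58 members had a count that was not whole in at least 1 library, so their reads may be shared with other genes or isoforms.

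Groups and numbers come from the sample titles. The whole table was fitted in R 4.3.3 by edgeR 4.0.16 (low counts removed by filterByExpr, TMM scaling, quasi-likelihood F test, group alone as the term), with Benjamini-Hochberg adjustment over 22181 features and a threshold of 0.05. A positive log2 fold change means higher in PRC1 i2KO, and ± is the standard error. DESeq2 1.42.0 and limma 3.58.1 (on counts with voom, and on log2(TPM + 1)) were alternatives, beside other scalings, filters, replicate blocks and leaving out each library. The scripts were tested on simulated data with known changes. Totals of 11626006 to 43307694 counts make 1 count worth 0.0203 to 0.0793 CPM.

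A member was named if it passed the threshold, was among the 6 smallest p, was the highest or lowest log2 fold change (control mean of at least 1 CPM) or the highest level of its complex, was a core or catalytic subunit, had a tissue-restricted paralog, or failed the filter. The values of 1 member that this rule names are not reported here, while counts, medians and sums include it. The members and all gene lists were chosen with earlier results of these data known. Transcript lengths are medians over the protein-coding transcripts of a gene in GENCODE M21. That annotation and the RefSeq promoters are of GRCm38, not of the build in the notes, so no other coordinates are given. No label says that the samples of a group are separate animals. The p-values therefore rest on the spread among these 5 samples, which can be technical.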

Additional observations from a re-analysis of the deposited data

How the results depend on the processing

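Under 17 alternatives, 0 members were lower in any and 0 were higher in 16, while DESeq2 called 12 higher (Cox8a at an adjusted p of 0.000468); the cause was not tested. Over all genes the counts higher and lower, 28 and 0 as reported, were 140 and 12 without a filter, 54 and 6 on protein-coding features only, 745 and 163 with DESeq2, 2 and 1 on log2(TPM + 1), and 7 and 5 on log2(TPM + 0.1). Library totals as the scaling called 3 genes lower, limma-voom 4 higher, and log2(TPM + 1) without a filter 0 higher (0 lower). Leaving out each library in turn gave 4 to 39 higher and 0 to 4 lower.

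The member median of 0.61 was 0.35 with library totals, 0.25 on log2(TPM + 1), 0.26 on log2(TPM + 0.1) and 0.24 on log2(TPM + 1) without a filter. The medians of all genes were -0.26, -0.19, -0.33 and -0.12 there, so the difference between members and all genes, 0.60 as reported, remained between 0.36 (log2(TPM + 1) without a filter) and 0.69 over the 17 alternatives. Leaving out a library gave member medians of 0.46 (without PRC1 i2KO 1) to 0.70 (without Control 3). Alternatives added after seeing the data put all PRC1 i2KO libraries above both controls in 24 members on TPM, against 47 on CPM. The shares of all tested features were 7.01% and 14.6%. Leaving out a library eases this criterion, so the count can only rise, and it was 48 to 67. The share of all tested features was 20.4% at 48 (without PRC1 i2KO 1) and 25.7% at 67 (without Control 3). For the other libraries the share was not computed.

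The replicate numbers of titles and descriptions differ for the controls, and whether either numbering pairs the samples is not known. Same-numbered samples deviated with correlations of 0.083 and 0.054 by title and of -0.029 and -0.083 by description. The deviations of the controls mirror each other, so every correlation recurs with the opposite sign for the other control. These correlations therefore cannot decide on pairing. A replicate block by title called 140 genes higher and 25 lower, one by description 10 higher and 0 lower, with 0 members in either and member medians of 0.47 and 0.65.

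Of 38 named members with a fit, 31 kept their sign throughout. With library totals Ndufs1 was at -0.12, Ndufs3 at -0.045, Uqcrfs1 at -0.15 and Cox7a2 at -0.20. On log2(TPM + 1), with or without a filter, Ndufs1 was at -0.48, Ndufs3 at -0.31, Uqcrc1 at -0.28, Uqcrc2 at -0.18, Uqcrfs1 at -0.19, Cox6b2 at -0.11 and Cox7a2 at -0.30. On log2(TPM + 0.1) they were at -0.50, -0.31, -0.29, -0.18, -0.20, -0.13 and -0.30. Cox7a2 was at -0.016 on protein-coding features only and at -0.036 with the replicate block by description. Leaving out a library gave -0.043 to 0.36 for Ndufs1 and -0.16 to 0.72 for Ndufs3 (lowest without Control 2), -0.22 to 0.91 for Cox6b2 (below 0 without Control 2 or PRC1 i2KO 2) and -0.027 to 0.20 for Cox7a2 (lowest without PRC1 i2KO 3). Depth limits Cox7a1, Cox7b2 and the second Atp5o feature, with few counts per library.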
